A study of Homo sapiens with 6 samples.

Results

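K562 cells transfected with a plasmid that carries MXD3 were compared with K562 cells transfected with the same plasmid without an insert. The comparison used the 2 libraries labelled MXD3 and the 2 labelled empty vector (EV), which are 4 of the 6 RNA-seq libraries of the series, and it took in all genes. K562 is an established line from a patient with chronic myeloid leukaemia in blast crisis, and its cells resemble early red cell precursors. The plasmid in both groups was pCMV-HA, in which a viral promoter drives the insert, and both groups are labelled as receiving no treatment. The remaining 2 libraries came from cells that received STIM1::MXD3, a fusion gene of paediatric acute myeloid leukaemia, and entered here in the estimate of the spread and in 1 comparison at the end. The study describes each library as an independent transfection of 1 cell line. Cells that took up no plasmid were not stated to have been removed, so each value is an average over cells with and without it.

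MXD3 belongs to the MXD family of basic helix-loop-helix leucine zipper proteins. These proteins pair with MAX, bind the E-box sequence CACGTG that MYC-MAX pairs also bind, and recruit the SIN3-HDAC corepressor, which removes acetyl groups from histones. Among the best known genes with such sites are those for making ribosomes, nucleotides and the machinery of growth. A sister branch of the same network consists of MLXIP (MondoA), MLXIPL (ChREBP) and their partner MLX, which respond to glucose metabolites.

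The 4 libraries held between 53048343 and 63835779 counts, and between 17500 and 17806 genes had at least 1 count. MXD3 (chr5:176728462-176739758, minus strand, GRCh37) stood at 9.33 and 11.7 counts-per-million (CPM, scaled by TMM) in EV libraries 1 and 2, and at 2524 and 2162 CPM in MXD3 libraries 1 and 2. The MXD3 libraries were 222-fold higher, with a log2 fold change of 7.80 ± 0.14 (SE, 2 libraries a group; edgeR, Benjamini-Hochberg adjusted p = 1.7e-15). Reads of the plasmid and of the cells' own gene were not separated in these counts. All 12 K562 identity markers were detected in every library, among them GATA1 at 247 to 307 CPM of the library total, and of 19 markers of other blood or tissue cells 13 were tested. Epithelial KRT8, KRT18 and EPCAM, monocyte LYZ and T cell CD3D were present in all 4 libraries, whereas B cell MS4A1 was listed at 0, and neutrophil MPO and ELANE had at most 4 counts in a library. The summed level of the 13 tested markers was 851 and 834 CPM in EV and 752 and 731 CPM in MXD3, of which KRT8, at 396, 387, 350 and 318 CPM in the same order, was a large part. The log2 fold change of KRT8 was -0.23 ± 0.08 (edgeR, adjusted p = 0.206), and the part of these markers in the results that follow was not tested.

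The replicate numbers in the labels were used to pair MXD3 library 1 with EV library 1 and MXD3 library 2 with EV library 2, so the pairs share no library. Each gene therefore has a log2 ratio of MXD3 over EV in pair 1 and in pair 2, and a fitted log2 fold change with the replicate number as a block. Of 15431 genes tested, 45 passed an adjusted p of 0.05 (edgeR quasi-likelihood test, Benjamini-Hochberg), which is 0.292%. MXD3 and 15 other genes were higher, or 0.104% of genes, and 29 were lower, or 0.188%. All 45 had the same direction in both pairs, which a test that uses these pairs favours, and 10 of them differed by more than 2-fold. Of all genes tested, 30.6% were higher and 31.5% lower in both pairs. These calls rest on the pairing, because without the replicate block MXD3 was the only gene called, or 0.00648% of genes, with 287 genes at an unadjusted p under 0.05 against 2149 with the block, or 13.9% of genes tested. DESeq2 with the same block called 243 genes (1.57%), of which 91 were higher (0.590%) and 152 lower (0.985%). The smallest p without the block among the other called genes belongs to TAC3 (unadjusted p = 0.000738). In every fold change given from here on, fewer cells that express a gene and less RNA of it per cell cannot be told apart.

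The pairs showed a limited common pattern. Over the 10245 genes with a mean of at least 5 CPM, the pair 1 and pair 2 log2 ratios correlated across genes with r = 0.415, and over all 15431 genes with r = 0.0907. Genes are not independent replicates, so no p is given for these values. The SD of the log2 ratio across these genes was 0.257 in pair 1 and 0.235 in pair 2, compared with 0.290 between the EV libraries and 0.319 between the MXD3 libraries. Replicate number thus separated the libraries more than the plasmid did. Both MXD3 libraries lay above both EV libraries for 2502 genes, or 16.2% of those tested, and below both for 2287 genes, or 14.8%. Of the 45 called genes, 15 were higher and 23 lower in this sense, and in the other 7 the groups overlapped.

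**Figure D1:**
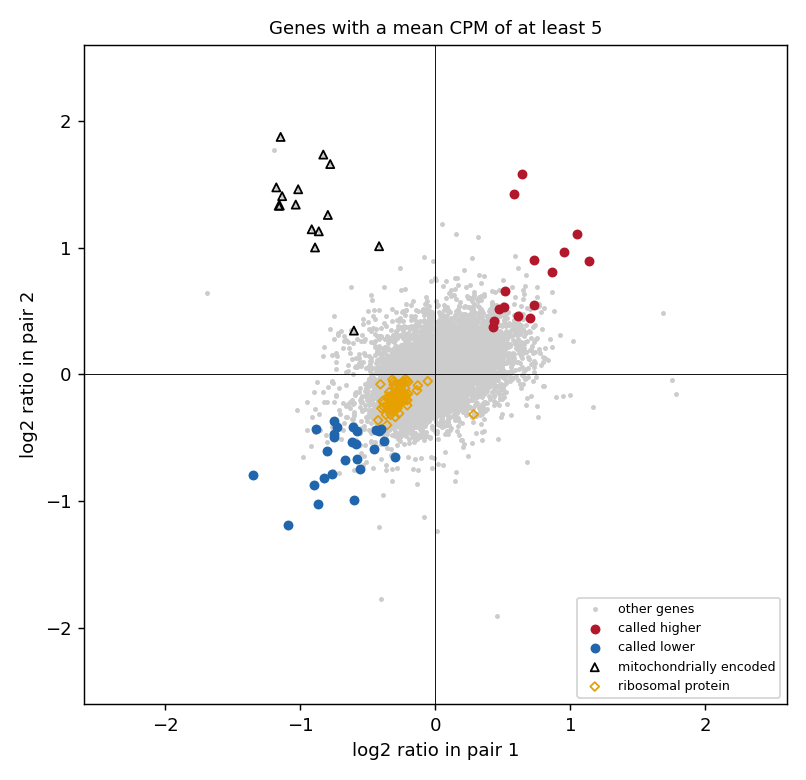
Log2 ratio of MXD3 over empty vector in pair 1 (x axis) and pair 2 (y axis) for 10241 genes with a mean of at least 5 CPM, MXD3 excluded; 3 further genes lie beyond the axes. Called genes sit in the upper right and lower left, ribosomal protein genes (diamonds) in a tight group at the lower left of the origin, and the 15 mitochondrially encoded transcripts (triangles) at the upper left, with opposite signs in the pairs.

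Among called genes the largest increase after that of MXD3 belonged to TXNIP (chr1:145438490-145442635, GRCh37), which encodes a thioredoxin-interacting protein that limits glucose uptake. TXNIP stood at 40.6 and 51.0 CPM in EV and at 63.1 and 153 CPM in MXD3. Both MXD3 values lay above both EV values, with MXD3 library 2 far above library 1, so the log2 ratio was 0.64 in pair 1 and 1.58 in pair 2. The fitted difference was 1.11 ± 0.15 (edgeR, adjusted p = 0.00684). Its relative ARRDC4 (chr15:98503933-98517063), an arrestin-domain protein, moved alike, from 6.36 and 7.43 CPM to 9.56 and 20.01 CPM. ARRDC4 too was highest in MXD3 library 2, with pair ratios of 0.58 and 1.42 and a fitted difference of 1.01 ± 0.19 (edgeR, adjusted p = 0.044). TXNIP and ARRDC4 are the classic target genes of MondoA and MLX and formed the whole of the list of MondoA targets. That list was written with earlier results of these data known, so it adds nothing to the 2 calls. The genes for the factors themselves were not called. Their log2 fold changes were -0.09 for MLX, -0.07 for MLXIP and 0.18 for MLXIPL (edgeR, adjusted p 0.683, 0.760 and 0.503).

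The 250 bases before the start of 4 raised genes are shown because they hold E-box letters, or letters 1 base away from them, at which factors of this network are known to bind. They are RefSeq promoter sequences of GRCh38.p14, matched by gene symbol, written 5′ to 3′ on the gene's strand, and the capitals mark CACGTG, or CACGAG in TXNIP.
TXNIP, chr1:145996580-145996829, minus strand: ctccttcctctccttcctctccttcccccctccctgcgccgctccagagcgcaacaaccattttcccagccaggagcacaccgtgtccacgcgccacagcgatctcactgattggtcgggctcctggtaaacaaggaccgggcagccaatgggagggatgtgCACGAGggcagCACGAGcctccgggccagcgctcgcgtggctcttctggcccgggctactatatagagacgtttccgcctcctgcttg
ARRDC4, chr15:97960453-97960702, plus strand: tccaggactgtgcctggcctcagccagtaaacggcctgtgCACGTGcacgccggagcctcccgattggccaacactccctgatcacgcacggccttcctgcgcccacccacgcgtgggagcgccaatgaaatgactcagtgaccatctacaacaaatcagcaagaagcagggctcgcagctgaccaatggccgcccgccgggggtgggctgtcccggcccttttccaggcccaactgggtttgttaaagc
UBXN10, chr1:20185846-20186095, plus strand: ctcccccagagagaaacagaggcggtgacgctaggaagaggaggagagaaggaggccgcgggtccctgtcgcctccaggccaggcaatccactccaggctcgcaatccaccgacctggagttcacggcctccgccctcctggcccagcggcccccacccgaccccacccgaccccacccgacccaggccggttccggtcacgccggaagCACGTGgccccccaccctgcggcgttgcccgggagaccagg
CTSF, chr11:66568607-66568856, minus strand: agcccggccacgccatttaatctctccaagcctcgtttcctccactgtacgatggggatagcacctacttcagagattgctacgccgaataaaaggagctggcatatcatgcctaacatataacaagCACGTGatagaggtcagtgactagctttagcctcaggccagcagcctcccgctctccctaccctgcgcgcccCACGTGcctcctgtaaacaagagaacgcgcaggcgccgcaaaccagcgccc
The TXNIP window holds CACGAG beginning 88 and 77 bases before the start and no CACGTG, and the other TXNIP window in RefSeq holds neither. CACGTG begins 210 bases before the start in ARRDC4, 41 bases before it in UBXN10, and 123 and 51 bases before it in CTSF. Letters in a window describe the sequence only and say nothing of binding in these cells. CACGAG was looked for after the values were seen. The raised gene UNG and the lower genes CITED2, OSER1 and ACTG1 also hold CACGTG in the 250 bases before a start and are not printed. The sequences shown are therefore not all that hold it.

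The promoters of all genes were searched for CACGTG, a palindrome that reads alike on both strands, in windows from 250 bases before to 50 bases after the start. It was found in 1514 of 16476 windows of the tested genes (9.19%), and 1405 of 11468 genes with a window had at least 1 (12.3%). Among the 15 higher genes other than MXD3, 13 had a window and 4 of them held the motif, which adds UNG to ARRDC4, UBXN10 and CTSF. Among the 29 lower genes, 28 had a window and 3 held it, namely CITED2, OSER1 and ACTG1, or 10.7%. CACGAG or its reverse complement CTCGTG was in 8.26% of all windows, in 1 of the 18 windows of higher genes and in 5 of the 39 of lower genes. Of the gene lists described further on, the ribosome assembly factors held CACGTG in 41 of 115 windows (35.7%), compared with 2 of 28 windows of small-subunit and 2 of 50 windows of large-subunit ribosomal protein genes.

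Among the other raised genes, TAC3, which encodes the precursor of neurokinin B, rose from 4.42 and 4.64 CPM to 9.18 and 10.1 CPM, and its libraries agreed within each group. The TAC3 difference was 1.09 ± 0.17 (edgeR, adjusted p = 0.024), with pair ratios of 1.05 and 1.11. UBXN10, an adapter of the p97 ATPase with a role at cilia, rose from 8.78 and 15 CPM to 19.4 and 28.0 CPM. In UBXN10 replicate 2 was above replicate 1 in both groups and no values overlapped (1.03 ± 0.15, edgeR adjusted p = 0.0156). VPS9D1-AS1, a non-coding transcript antisense to VPS9D1, rose from 4.38 and 4.82 CPM to 8.51 and 9.47 CPM (0.97 ± 0.18, edgeR adjusted p = 0.044). Since the use of strand in counting is not given in the sources used here, reads of VPS9D1 and of its antisense transcript may not have been separated.

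DERL3, a protein of the pathway that removes misfolded proteins from the endoplasmic reticulum (ER), stood at 6.50 and 7.72 CPM in EV and at 11.9 and 13.5 CPM in MXD3. The lysosomal protease gene CTSF stood at 13.6 and 12.6 CPM in EV and at 22.6 and 23.6 CPM in MXD3. Neither gene overlapped between groups, and the differences were 0.84 ± 0.16 for DERL3 (edgeR, adjusted p = 0.0474) and 0.82 ± 0.13 for CTSF (edgeR, adjusted p = 0.0274). The remaining raised genes changed by less. UNG, which removes uracil from DNA, rose from 20.6 and 29.3 to 34.1 and 42.8 CPM, and FBXO5, an inhibitor of the anaphase-promoting complex, from 33.8 and 45.1 to 46.9 and 64.4 CPM. In both, EV library 2 was the higher EV library and still lay below MXD3 library 1. The kinase gene PIM2 (0.58), DCUN1D4 of cullin neddylation (0.59), the splicing factor SRSF1 (0.54), the mRNA cleavage factor CSTF3 (0.52) and the mitochondrial carrier UCP2 (0.43) completed the group, each with non-overlapping libraries.

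HBZ, the embryonic zeta globin, was the raised gene with the smallest change and shows what the pairing does. HBZ stood at 263 CPM in EV library 1 and 145 CPM in EV library 2, and at 354 and 188 CPM in MXD3 libraries 1 and 2. The groups overlap, because replicate 1 was far above replicate 2 with either plasmid, yet the pair ratios of 0.43 and 0.37 were close to each other. The fitted difference was 0.40 ± 0.08 (edgeR, adjusted p = 0.0482), against an unadjusted p of 0.373 without the block.

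**Figure D2:**
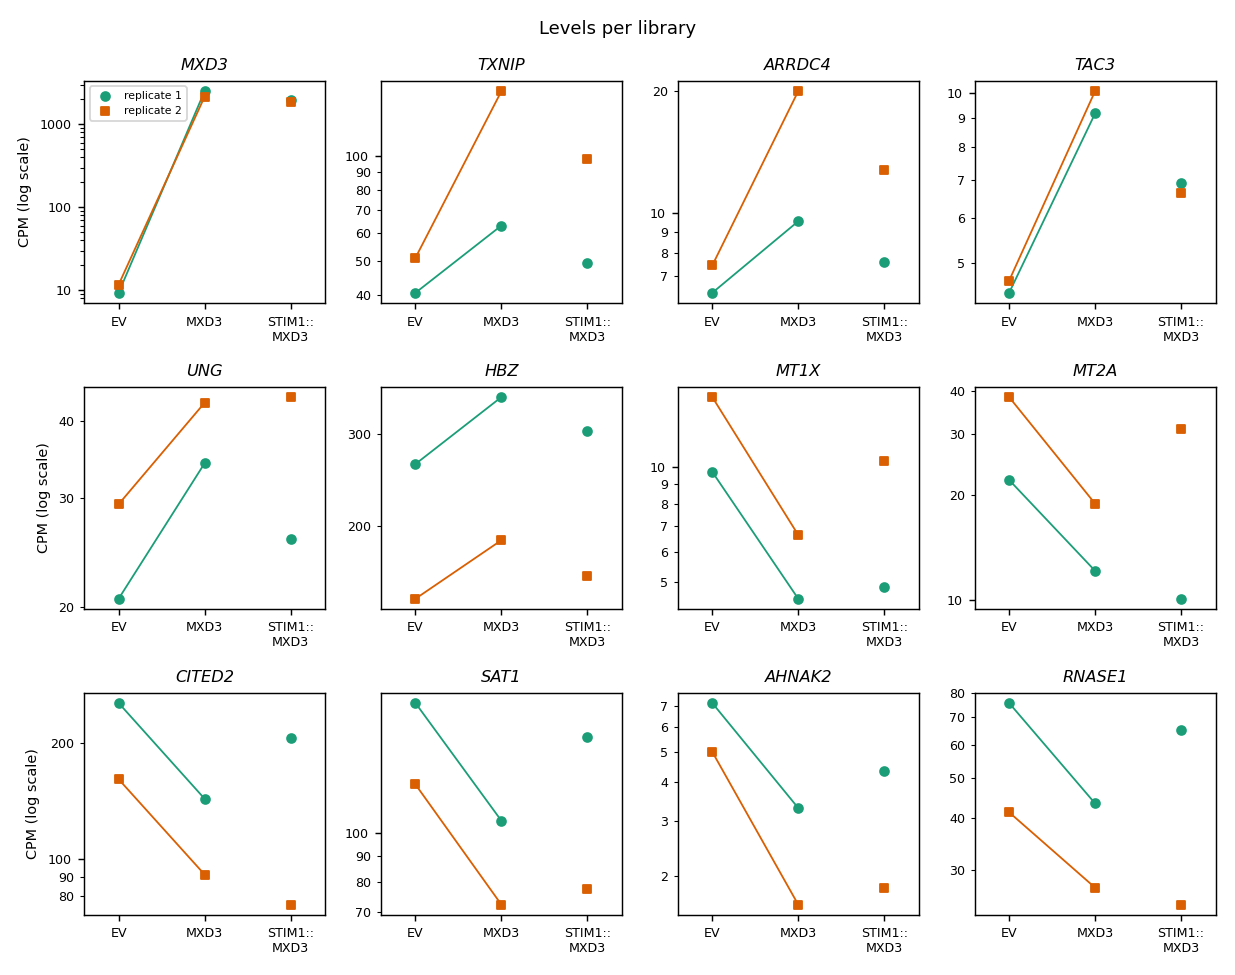
Level of 12 called genes in each library, in TMM-scaled CPM on a log axis, with lines joining EV and MXD3 libraries of the same replicate number. Lines of a gene run in 1 direction in all panels; in TXNIP and ARRDC4 the line of replicate 2 is the steeper, and in HBZ and RNASE1 the replicates differ more than the plasmids.

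MT1X and MT2A, which encode metallothioneins, small proteins that bind zinc and copper, were among the lower genes. MT1X (chr16:56716382-56718108) stood at 9.70 and 15.2 CPM in EV and at 4.53 and 6.64 CPM in MXD3, and MT2A (chr16:56642496-56643409) at 22.2 and 38.4 CPM in EV and at 12.1 and 18.9 CPM in MXD3. In both genes each MXD3 library lay below each EV library, and replicate 2 was the higher with either plasmid. The differences were -1.15 ± 0.18 for MT1X (edgeR, adjusted p = 0.022) and -0.94 ± 0.18 for MT2A (edgeR, adjusted p = 0.044). Of 13 genes in the list of metallothioneins and zinc handling, 9 were tested. Of these, 8 were lower in both pairs, against 31.5% of all genes. In 4 the unadjusted p was under 0.05 (44.4%, against 13.9% of all genes), and 2 were called by DESeq2. The list median was -0.96, with -0.87 in pair 1 and -0.43 in pair 2, and it was -0.46 without EV replicate 1. The 6 tested metallothionein genes differed by -1.25 (MT1E), -1.18 (MT1F), -1.17 (MT1G), -1.15 (MT1X), -0.96 (MT1H) and -0.94 (MT2A), of which only MT1X and MT2A were called, whereas MTF1, the zinc sensor that activates them, differed by -0.07. MT1E, MT1F, MT1G and MT1H had few reads, and metallothionein genes are close copies of each other, so how reads were divided among them is uncertain.

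CITED2, a protein that competes with HIF1A for the coactivators CBP and p300, stood at 253 and 161 CPM in EV and at 143 and 91.1 CPM in MXD3. CITED2 was higher in replicate 1 than in replicate 2 with either plasmid, and its log2 ratio was -0.82 in pair 1 and -0.82 in pair 2 (fitted -0.82 ± 0.14, edgeR adjusted p = 0.0274). The repressor gene BCL6 stood at 60.1 and 38.6 CPM in EV and at 32.5 and 28.7 CPM in MXD3, without overlap (-0.65 ± 0.12, edgeR adjusted p = 0.044). DUSP8, a phosphatase of stress-activated kinases, stood at 47.6 and 30.6 CPM in EV and at 31.3 and 15.4 CPM in MXD3, so MXD3 library 1 was just above EV library 2 (-0.81 ± 0.16, edgeR adjusted p = 0.0482).

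SAT1, which acetylates spermidine and spermine and so starts the breakdown of polyamines, stood at 180 and 124 CPM in EV and at 105 and 72.2 CPM in MXD3. No values of SAT1 overlapped, and the pair ratios were -0.77 and -0.78 (fitted -0.78 ± 0.11, edgeR adjusted p = 0.00684). Of the genes that make nucleotides and polyamines, 28 of 28 were tested and none was called by edgeR. AMD1, which provides the aminopropyl groups for spermidine and spermine, had 79.8 and 90.6 CPM in EV and 110 and 112 CPM in MXD3, and differed by 0.38 ± 0.09 (edgeR, adjusted p = 0.0778). PFAS of purine synthesis differed by 0.56 ± 0.13 (edgeR, adjusted p = 0.0742). In this list 12 members were higher and 6 lower in both pairs, against 30.6% and 31.5% of all genes, and the median was 0.06. The unadjusted p was under 0.05 in 9 members (32.1%, against 13.9% of all genes), and DESeq2 called 2 higher.

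Among called genes the largest fitted decrease belonged to VPS52, a subunit of the GARP complex that returns vesicles from endosomes to the Golgi, and it rests on EV library 2. Its count was 32 in EV library 1 and 464 in EV library 2, against 4 and 2 with MXD3. In scaled units VPS52 (chr6:33218049-33239824) stood at 0.628 CPM in EV library 1, at 7.67 CPM in EV library 2, and at 0.0623 and 0.0356 CPM in the MXD3 libraries. EV library 2 was far above all others, including the STIM1::MXD3 libraries at 0.0730 and 0.239 CPM. The fitted difference was -5.84 ± 0.70 (edgeR, adjusted p = 0.00268), and without EV replicate 2 it was -3.94 and no longer passed (adjusted p = 0.137). VPS52 lies in the major histocompatibility region. Of 23 other protein-coding genes within 300 kilobases of it, 15 had under 20 counts in every library (65.2%), compared with 31.6% of all protein-coding genes. RPS18 in this stretch, a ribosomal protein gene, had between 27 and 69 counts in a library, or 0.481 to 1.36 CPM, whereas RPS21, which lies outside this stretch, stood at 264 to 375 CPM. Why these genes had so few counts was not tested.

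AHNAK2, a giant scaffold protein, stood at 7.15 and 4.99 CPM in EV and at 3.30 and 1.62 CPM in MXD3 (-1.37 ± 0.23, edgeR adjusted p = 0.0274). KLHDC8A stood at 4.46 and 3.998 CPM in EV and at 1.54 and 1.55 CPM in MXD3 (-1.45 ± 0.28, edgeR adjusted p = 0.0481). WIPF3, which binds actin regulators of the WASP family, stood at 23.1 and 9.85 CPM in EV and at 9.03 and 5.66 CPM in MXD3 (-1.07 ± 0.18, edgeR adjusted p = 0.0276). In AHNAK2, KLHDC8A and WIPF3 both MXD3 libraries lay below both EV libraries, narrowly so in WIPF3. The adhesion molecule L1CAM (-0.89), the receptor LRP12 (-0.67) and OSER1 (-0.63) were lower without overlap, and the secreted ribonuclease RNASE1 (-0.70) was lower in both pairs with overlapping groups. A further 11 called genes changed by -0.42 to -0.62, among them ACTG1, cytoplasmic gamma actin, at 1588 and 1429 CPM in EV and 1199 and 1059 CPM in MXD3. The antiviral RNA-binding protein ZC3HAV1, the deubiquitinase YOD1 and the GTPase RAB32 were also in this group.

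**Figure D3:**
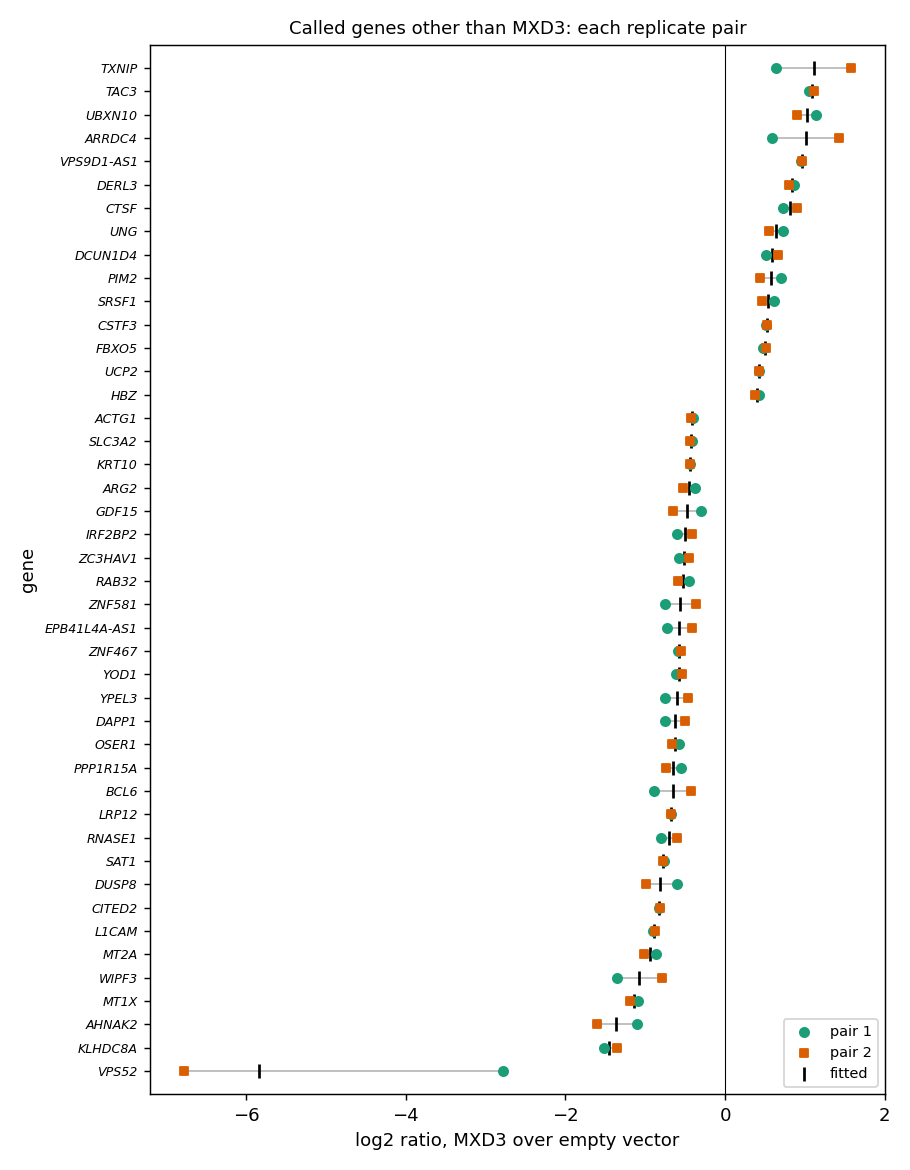
Log2 ratio of MXD3 over empty vector in pair 1 (circles) and pair 2 (squares) and the fitted value (bars) for the 44 called genes other than MXD3, ordered by fitted value. Each gene has both pairs on 1 side of 0, and VPS52 has the widest gap between pairs.

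Within the MYC, MAX and MXD network itself, 12 of 13 genes were tested and MXD3 was the only one called by edgeR. DESeq2 called MXD3 and MGA, both higher. MYCN was not tested, with at most 2 counts in a library. MYC stood at 225 and 213 CPM in EV and at 237 and 241 CPM in MXD3 (0.12 ± 0.09, edgeR adjusted p = 0.559), and MAX at 41.9 and 45.0 CPM in EV and at 42.1 and 45.2 CPM in MXD3 (0.01 ± 0.10, edgeR adjusted p = 0.987). The MAX difference was smaller than its SE. The widest differences after MXD3 were those of MGA, a large MAX partner, and MNT, a MAX-dependent repressor. MGA stood at 69.1 and 86.1 CPM in EV and at 108 and 99.1 CPM in MXD3 (0.42 ± 0.10, edgeR adjusted p = 0.0929), and MNT at 32.0 and 37.6 CPM in EV and at 41.2 and 44.1 CPM in MXD3 (0.30 ± 0.10, edgeR adjusted p = 0.199). Neither overlapped between groups and neither passed in edgeR, whereas MGA passed in DESeq2 (adjusted p = 0.0255). Of the other repressor genes, MXI1 differed by -0.27, MXD4 by -0.14 and MXD1 by -0.05, and MYCL differed by -0.17 (adjusted p 0.318, 0.554, 0.840 and 0.526). Of 18 genes of the SIN3-HDAC corepressor none was called by edgeR or DESeq2, and 2 had an unadjusted p under 0.05, SIN3A at 0.31 ± 0.10 (adjusted p = 0.166) and BRMS1 at -0.33 ± 0.11 (adjusted p = 0.179).

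Ribosomal protein genes had a small difference, in 1 direction in nearly all of them. All 32 small-subunit and all 47 large-subunit genes were tested, and the fitted value was below 0 in 79 of 79. Both pairs were below 0 in 78 of 79, against 31.5% of all genes tested. The median log2 fold change was -0.24 over both subunits, with -0.29 in pair 1 and -0.19 in pair 2, while the median over all genes was -0.002. None of the 79 was called by edgeR, 64 had an unadjusted p under 0.05 and a value below 0, and DESeq2 with the same block called 21, all lower, compared with 0.985% of all genes lower. Other edgeR fits with the block, apart from those without a single library, called 0 to 18 of the 79, all lower. They were 18 with no filter, 11 with the EV and MXD3 libraries alone and 3 with mitochondrial genes left out. Counts divided by 2, either offset and the newer quasi-likelihood fit gave 1 each. Median-of-ratios, upper-quartile and library-total scaling gave 0. A change of scaling moves all genes together. With library totals in place of TMM the median over all genes was 0.04 and the ribosomal median was -0.20. In that fit 78 of 79 were below 0. The smallest p values belonged to RPS15A, at 663 and 642 CPM in EV and 494 and 500 CPM in MXD3 (-0.39 ± 0.08, edgeR adjusted p = 0.0589), and RPS21, at 340 and 375 CPM in EV and 264 and 301 CPM in MXD3 (-0.34 ± 0.08, edgeR adjusted p = 0.0787). Among large-subunit genes RPL35A (-0.33 ± 0.08, adjusted p = 0.103) and RPL27 (-0.32 ± 0.08, adjusted p = 0.127) were foremost. Processed pseudogenes resemble many ribosomal protein mRNAs, and RPS18 and RPS19 had far fewer reads than most others, so single values are uncertain.

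Transcripts that share the terminal oligopyrimidine (TOP) start of ribosomal protein mRNAs lay on the same side. Of 19 other TOP mRNAs all 19 had a fitted value below 0 and 14 were below 0 in both pairs, with a median of -0.18 that was -0.08 without MXD3 replicate 1. Elongation factor EEF2 stood at 7001 and 5988 CPM in EV and at 5820 and 5082 CPM in MXD3 (-0.25 ± 0.07, edgeR adjusted p = 0.131), and EEF1G differed by -0.29 ± 0.08 (adjusted p = 0.130). None of the 19 was called by edgeR, 10 had an unadjusted p under 0.05 (52.6%, against 13.9% of all genes), and DESeq2 called 4 lower. Host genes of small nucleolar RNAs, many of which also have a TOP start, were below 0 in 14 of 14 tested, with a median of -0.28 that was larger in pair 1 (-0.47) than in pair 2 (-0.11). With 1 library left out this median ran from -0.44 (MXD3 library 2) and -0.42 (EV library 2) to -0.18 (EV library 1) and -0.14 (MXD3 library 1). Among the 14, 9 had an unadjusted p under 0.05 (64.3%) and DESeq2 called 6, all lower. EPB41L4A-AS1 was the member called by edgeR, at 43.5 and 41.3 CPM in EV and 26.2 and 30.9 CPM in MXD3 (-0.57 ± 0.11, edgeR adjusted p = 0.0466). It was lower without overlap.

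Genes for assembling the ribosome leaned the other way. Of 119 assembly factors 118 were tested, and 65 were higher and 27 lower in both pairs, against 30.6% and 31.5% of all genes. Their median log2 fold change was 0.10, or 0.05 without EV replicate 1, and none was called by edgeR. Of the 118, 33 had an unadjusted p under 0.05 (28.0%, against 13.9% of all genes), of which 31 were higher. DESeq2 called 7, all higher. URB1, which acts in the early large subunit precursor, stood at 63.8 and 73.7 CPM in EV and at 97.0 and 91.6 CPM in MXD3 (0.46 ± 0.10, edgeR adjusted p = 0.0549). Of 13 genes of RNA polymerase I and its factors, 9 were higher and 1 lower in both pairs, with a median of 0.12. POLR1G (1.09 ± 0.23, adjusted p = 0.0602) and POLR1A, the largest subunit (0.45 ± 0.11, adjusted p = 0.0929), had the smallest p values there. None of the 13 was called by edgeR, 4 had an unadjusted p under 0.05 (30.8%) and DESeq2 called 1 higher. Ribosomal protein genes have short transcripts, and the median log2 fold change over all genes ran from -0.05 in the group with the shortest transcripts to 0.02 in that with the longest, of 5 groups by length. With an offset for transcript length alone, an alternative chosen after seeing the data, the ribosomal protein median was -0.22.

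**Figure D4:**
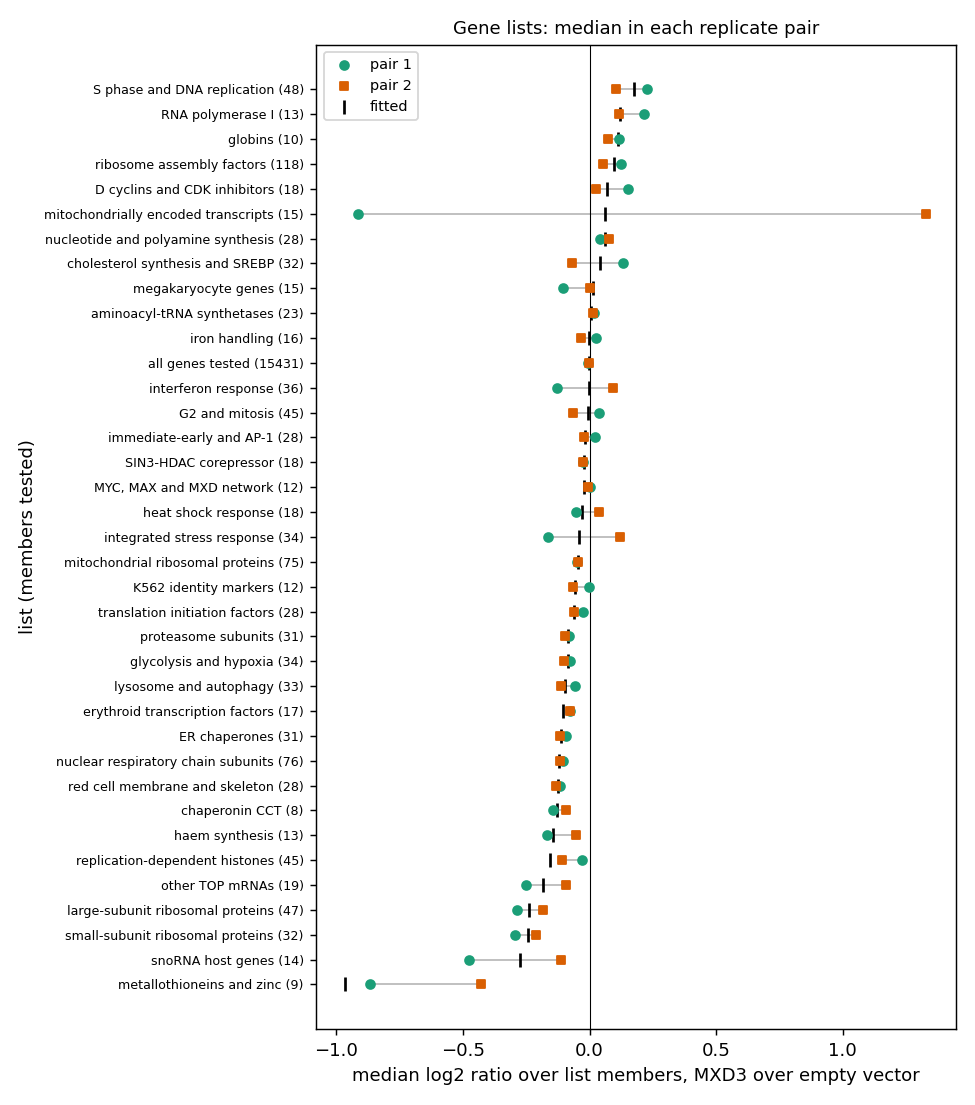
Median log2 ratio of MXD3 over empty vector over the tested members of gene lists, in pair 1 (circles), in pair 2 (squares) and as fitted (bars), with the number of members tested in brackets. A row for all genes tested is included, and the lists of MondoA targets and of markers of other cell types are left out. Ribosomal proteins, other TOP mRNAs and snoRNA host genes lie below 0 in both pairs and S phase genes above, while mitochondrially encoded transcripts are at -0.92 in pair 1 and 1.33 in pair 2.

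Genes of DNA replication were mostly higher. All 48 S phase genes were tested, and 35 were higher and 4 lower in both pairs, against 30.6% and 31.5% of all genes. The median log2 fold change was 0.17 (0.23 in pair 1 and 0.10 in pair 2). None was called by edgeR and DESeq2 called 4 higher. An unadjusted p under 0.05 was found in 20 (41.7%, against 13.9% of all genes), all of them higher. GINS1 of the replicative helicase stood at 25.7 and 37.4 CPM in EV and at 38.5 and 49.9 CPM in MXD3 (0.50 ± 0.10, edgeR adjusted p = 0.0515), and the flap endonuclease FEN1 at 78.4 and 126 CPM in EV and at 131 and 153 CPM in MXD3 (0.52 ± 0.12, edgeR adjusted p = 0.0703). Genes of G2 and mitosis showed no such lean, with 9 of 45 higher and 15 lower in both pairs and a median of -0.005; CDC20 (-0.37 ± 0.10, adjusted p = 0.130) and PLK1 (-0.28 ± 0.09, adjusted p = 0.179) had the smallest p values. Among cyclins and inhibitors of their kinases, 8 of 18 were higher and 4 lower in both pairs, and the foremost were CCNE2 (0.51 ± 0.16, adjusted p = 0.160) and CDKN1C (-0.46 ± 0.14, adjusted p = 0.154). Replication-dependent histone genes, whose mRNAs mostly lack a poly A tail and are caught poorly by poly A libraries, had a median of -0.16 over 45 tested, which moved to -0.03 when EV library 1 was left out and to -0.08 when EV library 2 or MXD3 library 2 was, and were led by H2AC8 (-0.47 ± 0.12, adjusted p = 0.101). In these 3 lists none was called by edgeR, and 6, 7 and 5 genes had an unadjusted p under 0.05. These are 13.3% of G2 and mitosis genes, 38.9% of cyclins and inhibitors and 11.1% of histone genes, against 13.9% of all genes. DESeq2 called CDC20 and H2AC8, both lower, and no cyclin or inhibitor.

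The integrated stress response, in which cells slow translation and raise ATF4 targets, gave a split picture. PPP1R15A, the phosphatase subunit that ends the response, stood at 559 and 486 CPM in EV and at 380 and 291 CPM in MXD3 (-0.65 ± 0.10, edgeR adjusted p = 0.022). SLC3A2, the heavy chain of several amino acid transporters, stood at 649 and 496 CPM in EV and at 485 and 365 CPM in MXD3 (-0.43 ± 0.08, edgeR adjusted p = 0.0466). GDF15, a secreted stress hormone, stood at 1124 and 717 CPM in EV and at 915 and 457 CPM in MXD3 (-0.47 ± 0.09, edgeR adjusted p = 0.0481). PPP1R15A and SLC3A2 did not overlap between groups and GDF15 did. The other 31 of 34 members were not called by edgeR, and 13 of the 34 had an unadjusted p under 0.05 (38.2%, against 13.9% of all genes). DESeq2 called 6 members, the same PPP1R15A, SLC3A2 and GDF15 together with DDIT3 and NUPR1 as lower and ALDH1L2 as higher. The list median was -0.17 in pair 1 and 0.12 in pair 2, and ATF4 itself had ratios of -0.29 and 0.04. Serine synthesis enzymes of the list stood on the other side, PSAT1 at 0.36 and PSPH at 0.47, neither of them called by edgeR or DESeq2.

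Chaperones of the ER were mostly lower. Of 31 tested, 18 were lower and 2 higher in both pairs, against 31.5% and 30.6% of all genes, with a median of -0.11 that was -0.07 without EV replicate 2. DERL3 was the only call by edgeR. Of the 31, 7 had an unadjusted p under 0.05 (22.6%, against 13.9% of all genes), of which 6 were lower. DESeq2 called DERL3 higher and HSPA5 and CALR lower. HSPA5 (BiP), the chaperone that senses unfolded proteins in the ER, differed by -0.43, and the calcium-binding CALR by -0.36. Cytosolic heat shock genes had CRYAB (-1.03 ± 0.21, adjusted p = 0.0526) and DNAJB1 (-0.45 ± 0.10, adjusted p = 0.0589) foremost, neither called by edgeR. All 8 subunits of the chaperonin CCT had a fitted value below 0 (median -0.13, or -0.05 without MXD3 replicate 1), and 19 of 31 proteasome subunits were lower in both pairs (median -0.09, or -0.04 without EV replicate 2). Lysosomal and autophagy genes were lower in both pairs in 19 of 33 (median -0.10, or -0.06 without EV replicate 2), with SQSTM1 (-0.28 ± 0.08, adjusted p = 0.146) and CTSB (-0.27 ± 0.08, adjusted p = 0.162) foremost. None of these last 4 lists had a gene called by edgeR, and DESeq2 called DNAJB1 and SQSTM1, both lower. In the order heat shock, CCT, proteasome and lysosome, 3, 1, 4 and 6 genes had an unadjusted p under 0.05. These are 16.7%, 12.5%, 12.9% and 18.2% of each list, near the 13.9% of all genes.

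The red cell programme of K562 moved in several directions. Of 10 globin genes tested, 6 were higher and 4 lower in both pairs and HBZ was called. The abundant HBE1 (0.11) and HBG2 (-0.10) differed little. Erythroid transcription factor genes were lower in both pairs in 11 of 17 (median -0.10), red cell membrane and skeleton genes in 18 of 28 (median -0.12, or -0.20 without EV replicate 1), and haem synthesis genes in 9 of 13 (median -0.15, or -0.04 without MXD3 replicate 1). The foremost in these lists were E2F2 (0.59 ± 0.15, adjusted p = 0.116), LYL1 (-0.33 ± 0.08, adjusted p = 0.116), EPB42 (-0.66 ± 0.16, adjusted p = 0.0929), CD44 (-0.80 ± 0.20, adjusted p = 0.116) and ALAS1 (-0.43 ± 0.12, adjusted p = 0.138). In these 3 lists edgeR called none and DESeq2 called 3, 4 and 0. In the same order, 7, 11 and 3 genes had an unadjusted p under 0.05. These are 41.2%, 39.3% and 23.1%, against 13.9% of all genes. Of all genes, 31.5% were lower in both pairs. Megakaryocyte genes, the other fate open to K562, had a median of 0.01 over 15 tested, with CD9 (-0.76 ± 0.26, adjusted p = 0.202) foremost. Neither tool called any, and 3 had an unadjusted p under 0.05 (20%).

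For mitochondrial transcripts the pairs disagreed. The 15 mitochondrially encoded transcripts summed to 28406 and 15158 CPM in EV and to 14389 and 36251 CPM in MXD3. MXD3 was lower than EV in pair 1 and higher in pair 2, with median log2 ratios of -0.92 and 1.33, and no member had the same sign in both pairs. None was called, none had an unadjusted p under 0.05, and DESeq2 called none. Nuclear genes for respiratory chain subunits, in contrast, were lower in both pairs in 57 of 76 and higher in 4, with a median of -0.12. These are 75% and 5.26%, against 31.5% and 30.6% of all genes. None of these 76 was called by edgeR or DESeq2, and 17 had an unadjusted p under 0.05 (22.4%, against 13.9% of all genes). SDHB stood at 171 and 141 CPM in EV and at 140 and 122 CPM in MXD3 (-0.25 ± 0.08, edgeR adjusted p = 0.195). Mitochondrial ribosomal proteins were lower in both pairs in 36 of 75 (48%) and higher in 17 (22.7%), with a median of -0.05. Neither edgeR nor DESeq2 called any, and 7 had an unadjusted p under 0.05 (9.33%), a smaller share than of all genes.

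In the remaining lists no gene was called by edgeR. Glycolysis and hypoxia genes were lower in both pairs in 19 of 34 (55.9%, against 31.5% of all genes), with a median of -0.09. They were led by ALDOC (-0.33 ± 0.09, adjusted p = 0.130) and PFKM (-0.35 ± 0.10, adjusted p = 0.131). Translation initiation factors (median -0.06), aminoacyl-tRNA synthetases (0.01), iron handling genes (-0.001), cholesterol synthesis genes (0.04), interferon response genes (-0.004) and immediate-early genes (-0.02) had medians near that of all genes. JUN in the last list shows how pairs can part, at 299 and 204 CPM in EV and at 301 and 87.1 CPM in MXD3, with ratios of 0.01 and -1.23. In the order glycolysis, initiation factors, synthetases, iron, cholesterol, interferon and immediate-early, 10, 5, 3, 4, 2, 1 and 9 genes had an unadjusted p under 0.05, and DESeq2 called 3, 0, 0, 0, 1, 0 and 0. An unadjusted p under 0.05 was held by 32.1% of immediate-early, 29.4% of glycolysis, 25% of iron and 17.9% of initiation factor genes. The share of all genes was 13.9%. Synthetases lay near it, and cholesterol (6.25%) and interferon genes (2.78%) lay below it. Immediate-early genes had fitted values from -1.44 to 1.38, so their median does not show that they were unchanged.

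The STIM1::MXD3 libraries were set beside MXD3 to see where the unfused protein differed. They carried MXD3 counts at 1975 and 1849 CPM, close to the level in the MXD3 libraries. None of the 44 called genes other than MXD3 passed for the difference between STIM1::MXD3 and MXD3 (edgeR, smallest adjusted p = 0.221), and 24 had an unadjusted p under 0.05. The 44 were chosen on the MXD3 libraries that this difference shares, so these p values are a description. Of the 44, 43 had the same sign for STIM1::MXD3 against EV as for MXD3 against EV. The change was smaller with STIM1::MXD3 in 42. Selection of the 44 for passing with MXD3 favours a larger change there than with STIM1::MXD3. Both comparisons also share the EV libraries, so these counts are a description too and do not show a weaker effect of the fusion. The only gene of 15431 called was STIM1, or 0.00648%, whose first part the fusion carries. VPS9D1-AS1 stood at 4.43 and 5.98 CPM in STIM1::MXD3, near its EV level. UNG stood at 25.8 and 43.7 CPM there, of which the value of replicate 2 was near that of MXD3 library 2 (42.8 CPM) and the value of replicate 1 lay between EV library 1 (20.6 CPM) and MXD3 library 1 (34.1 CPM).

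Ribosomal protein genes had higher values with STIM1::MXD3 than with MXD3, without a call. Their median was -0.24 for MXD3 against EV and 0.004 for STIM1::MXD3 against EV, and STIM1::MXD3 lay above MXD3 in 78 of 79 (98.7%), against 50.8% of all genes, with a median difference of 0.23. RPS15A stood at 668 and 598 CPM in STIM1::MXD3, beside 494 and 500 CPM in MXD3. For this difference none of the 79 was called by edgeR and 66 had an unadjusted p under 0.05 (83.5%), against 6.49% of all genes. It uses the same MXD3 libraries as the comparison with EV, and the list was chosen with earlier results known. The values are therefore a description and no separate support. S phase genes had medians of 0.17 for MXD3 and 0.15 for STIM1::MXD3 against EV and 23 of 48 genes above MXD3 in STIM1::MXD3.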

How the data were processed

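RNA of K562 cells was sequenced after transfection with pCMV-HA that was empty (EV) or carried MXD3 or STIM1::MXD3, with 2 libraries per group. The authors deposited raw counts per gene, 1 table per library, under NCBI Gene identifiers. The libraries were enriched for poly A RNA and read from both ends. The submitters' processing notes name HISAT2 2.2.1, featureCounts 2.0.1 and hg19. The annotation, the use of strand and whether read ends or pairs were counted are not given in the sources used here. Among genes with 1 to 39 counts, 59.8% to 67.3% of counts were even.

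Of 25702 identifiers, 23696 were matched to a symbol. Genes passing filterByExpr (15431) were fitted over all 6 libraries with TMM scaling, 1 coefficient per group and the replicate number as a block, by the quasi-likelihood test of edgeR 4.0.16 (fitted as in its earlier version, legacy = TRUE) in R 4.3.3, two-sided. Adjustment was by Benjamini-Hochberg across every tested gene, and a gene with an adjusted p under 0.05 is said to be called. The SE is the log2 fold change divided by the square root of F. It rests on a spread estimated over all 6 libraries with information shared across genes. It is not the spread of the 2 pair ratios of a gene, which can lie further apart. Log2 ratios of pairs used a prior count of 2. The study names no block. Across genes with a mean of at least 5 CPM, deviations of same-numbered EV and MXD3 libraries from their group means correlated with r = 0.621, and over all genes with r = 0.270. P-values measure the spread between these libraries, and precision also rests on the 53048343 to 63835779 counts per library. The fit was tested on simulated data.

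The comparison and the gene lists were chosen with earlier results of these data known, so lists are described by counts and medians with no test. Genes were named by rule. They were MXD3 and its network, up to 15 called genes per direction by size of change with a mean of at least 1 CPM in the higher group, and per list up to 3 called genes per direction by p or, with no call, up to 2. ACTG1, ZC3HAV1, YOD1, RAB32, HSPA5, CALR, PSAT1, PSPH, ATF4, DDIT3, NUPR1, ALDH1L2, HBE1, HBG2 and the remaining metallothionein genes were named after their values were seen. Promoters came from RefSeq (GRCh38.p14) and positions of genes from GENCODE on GRCh37. Alternatives were other scalings, filters and offsets, DESeq2 1.42.0, counts divided by 2, fits without the block and fits without each library.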

Additional observations from a re-analysis of the deposited data

How the results depend on the processing

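The number of called genes (45, of which 16 higher, 29 lower and 10 over 2-fold) depended strongly on the fit, and the cause was not tested except where the setting itself adds or removes libraries or genes. With no replicate block edgeR called 1 gene, MXD3 (1 higher, 0 lower, 1 over 2-fold, 287 at an unadjusted p under 0.05), and DESeq2 with no block called 3 (2 higher, 1 lower, 3 over 2-fold). With the block, the EV and MXD3 libraries alone gave 400 (172 higher, 228 lower, 21 over 2-fold), DESeq2 gave 243 (91 and 152), no filter 508 (255 and 253, 51 over 2-fold), counts divided by 2 gave 78 (26 and 52), and GC and length offsets 68 (24 and 44). Median-of-ratios size factors gave 16 (6 and 10), upper-quartile scaling 19 (6 and 13), and library totals alone 6 (4 and 2, 5 over 2-fold). Of settings chosen after seeing the data, leaving out mitochondrial genes gave 81 (28 and 53), the newer edgeR quasi-likelihood fit 61, and a length offset alone 54.

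Leaving out 1 library gave 52 to 721 calls (29 to 323 higher, 23 to 398 lower, 22 to 70 over 2-fold). The totals were 297 without EV replicate 1, 179 without EV replicate 2, 52 without MXD3 replicate 1, 272 without MXD3 replicate 2, and 366 and 721 without replicates 1 and 2 of the fusion. Where a group keeps 1 library, that library is assumed to vary like the other groups. Of the 44 called genes other than MXD3, 40, 28, 14, 37, 44 and 44 were still called in the same order, and 10 were called in all 6 fits. UBXN10, TXNIP, TAC3 and SAT1 were also called in all 11 other fits with the block. None of the 44 changed sign in any alternative. MXD3 was called in every alternative (log2 fold change 7.56 to 8.05), and the ribosomal protein median ranged from -0.30 to -0.17. Other list medians moved more. With 1 library left out, 13 of 38 turned sign and 18 kept it but moved by over 1.5 times. Of those that turned, globins (0.11) ran from -0.02 to 0.15 and mitochondrially encoded transcripts (0.06) from -0.78 to 1.21. The other 11 had medians within 0.06 of 0, among them integrated stress response genes (-0.04), which ran from -0.18 to 0.15, and cholesterol synthesis genes (0.04), from -0.05 to 0.13.

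Among named genes, signs turned for MAX, MT-ND3 and MT-ND6, none of them called. MAX (0.01) was -0.0122 with GC and length offsets, -0.00779 with a length offset alone, and -0.0336 to 0.048 with 1 library left out. With 1 library left out, MT-ND3 (0.27) ranged from -0.348 to 0.95 and MT-ND6 (0.40) from -0.551 to 1.47. MT-ND3 was -0.348 without EV replicate 2 and -0.154 without MXD3 replicate 2, and MT-ND6 was -0.551 and -0.431.

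Read pairs, strand and gene copies could not be resolved in these counts.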
